A study of Homo sapiens with 8 samples.

Results

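Sites of the tumour suppressor p53 listed with the drug Nutlin-3 were compared with those listed with its solvent, DMSO, in U2OS cells, a line from a human osteosarcoma with wild-type p53. The comparison takes every peak of the 2 lists, 18159 from the Nutlin-3 library and 2793 from the DMSO library, or 20952 of the 24535 peaks in the 4 lists of the series. Cells received 10 µM Nutlin-3 or 0.1% DMSO for 24 h, and chromatin was precipitated with the p53 antibody DO-1. With 1 ChIP and 1 input library a condition there is no replicate and no test of condition was made. Percentages carry exact 95% binomial intervals, for counting error alone and as if peaks were independent of each other. Lists from cells given 0.6 µg/ml doxorubicin (3087 peaks) or no treatment (496 peaks) for the same 24 h took no part in forming the classes of peaks and served as outside readouts. The lists hold positions on the build hg18 in steps of 20 bp, with no height, score or read count. The depth behind them is unknown, and a longer list can come from deeper sequencing, stronger enrichment or more binding, which cannot be told apart here.

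p53 is a transcription factor that binds DNA as a tetramer. Its consensus element is a pair of copies of a short repeat, set next to each other or a few bases apart. In unstressed cells the ubiquitin ligase MDM2, itself a p53 target, binds p53 and sends it to the proteasome. Nutlin-3 fills the pocket of MDM2 that holds p53, so p53 accumulates without DNA damage and its targets for cell cycle arrest, apoptosis, repair and feedback are switched on.

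Since no hg18 sequence was used, the bases under the peaks cannot be shown. The following sites, which make the element concrete for the target loci described further on, come from RefSeq promoters on GRCh38.p14 and run 5′ to 3′ on the strand of the gene. Each promoter covers 250 bases before and 50 after a transcription start. A site was printed when both copies of the p53 consensus repeat, at most 1 bp apart, had at most 2 mismatches together. Capitals mark both copies.
DDB2: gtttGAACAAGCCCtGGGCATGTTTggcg
MDM2: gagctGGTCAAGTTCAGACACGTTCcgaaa
FAS: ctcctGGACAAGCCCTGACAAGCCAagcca
AEN: gagccGGGCTTGCCCGGGCATGTGGgagct
PCNA: tctccACATATGCCCGGACTTGTTCtgcgg
The DDB2 site (plus strand, chr11:47214975-47215003) had 0 mismatches, and the others had 2. The MDM2 site is at chr12:68808918-68808947, the FAS site at chr10:88991304-88991333 and the AEN site at chr15:88621301-88621330, all on the plus strand, and the PCNA site is at chr20:5120170-5120199 on the minus strand. The consensus reads the same on both strands. Of the 27 target loci, 26 were matched in the promoter table and 5 of these held such a site, while 469 of all 35116 promoters (1.34%) did. The first count is by gene and the second by promoter, so the shares cannot be compared directly. A match is a run of letters and not a measured site, and whether a peak covers it was not determined, because the peaks and the sequences are on different builds.

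By an overlap of 1 bp, most solvent peaks met a Nutlin-3 peak. A DMSO peak is called kept when it shares at least 1 bp with a Nutlin-3 peak, and 1967 of 2793 were kept (70.4%, 68.7 to 72.1). The share fell to 40.5% with a reciprocal overlap of at least 50%, to 38.7% without peaks of 40 bp and to 32.7% in the widest 50% of each list, each of which is a minority of the DMSO peaks compared. The midpoint of the widest overlapping Nutlin-3 peak lay a median of 20 bp from that of the DMSO peak, with a 90th percentile of 80 bp. Small shifts follow in part from the overlap rule. On the 20 bp grid, overlapping peaks that are both 40 bp wide differ by at most 20 bp. Bounds were identical for 342 kept peaks (17.4%, 15.7 to 19.1), of which 300 were 40 bp wide, the smallest width in the lists. In a further 505 the Nutlin-3 peak lay inside the DMSO peak, in 386 it enclosed it, and in 734 the bounds were staggered. The 1967 kept peaks covered 172 kb, and 55.2% of these bases were also under Nutlin-3 peaks.

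Kept peaks, as listed, were not wider with Nutlin-3 as a class. When peaks up to 1000 bp apart were joined into sites, 59.0% were wider and 24.1% narrower, as described below. The Nutlin-3 peak was wider than the DMSO peak in 576 cases (29.3%, 27.3 to 31.3), equally wide in 678 (34.5%, 32.4 to 36.6) and narrower in 713 (36.2%, 34.1 to 38.4). The median difference was 0 bp, its middle 50% ran from -20 to 20 bp, and differences of at least 100 bp were about as frequent upwards (228) as downwards (217). Grouped by starting width, the shares differed. Of kept DMSO peaks of 40 bp, which cannot narrow further, 36.4% were wider with Nutlin-3. Of the 118 kept peaks of 200 to 280 bp, 81.4% were narrower, with a median of 60 bp in place of 220 bp. Of the 60 kept peaks of at least 300 bp, 88.3% were narrower, with a median of 140 bp in place of 370 bp.

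The same held in the opposite direction. Among kept Nutlin-3 peaks of at least 300 bp, 81 of 83 (97.6%) met a narrower DMSO peak, with a median of 60 bp against 380 bp. Wide peaks of either list thus met mostly narrow peaks of the other. Few kept peaks were at least 300 bp wide, 60 of 1967 in DMSO and 83 of 1982 in Nutlin-3. Picking peaks by their width in 1 list therefore favours a narrower partner in the other.

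**Figure D1:**
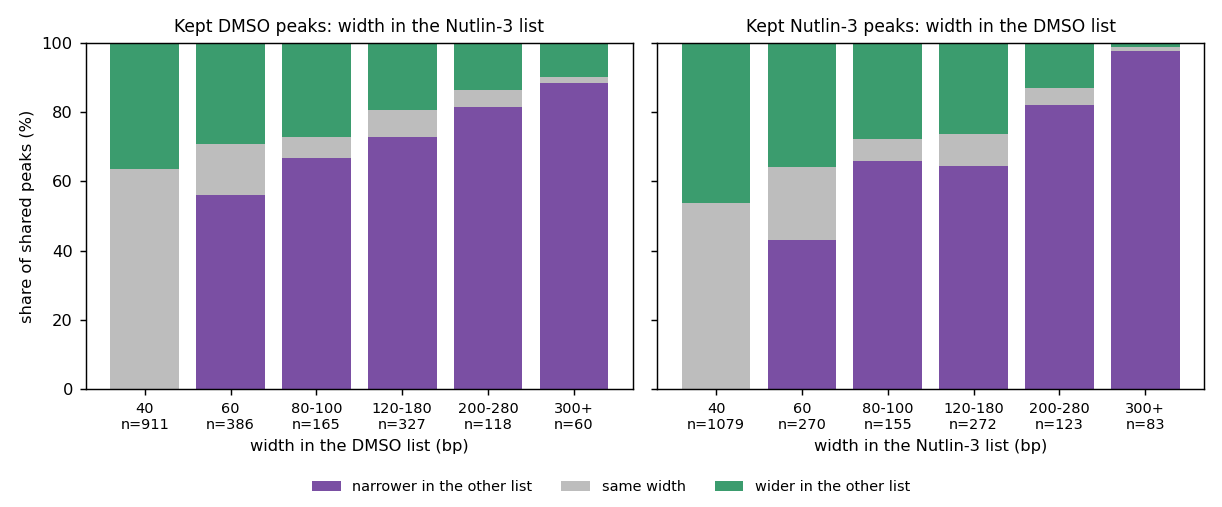
Share of shared peaks (vertical axis, %) that were narrower, equally wide or wider in the other list, by width class in bp (horizontal axis), starting from DMSO peaks on the left and from Nutlin-3 peaks on the right. In both panels the narrower share grows from 0% at 40 bp to 88.3% and 97.6% at 300 bp or more.

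The peaks that widened most show one end of this range. On chromosome 19 a DMSO peak of 80 bp, from 34851491 to 34851571, met a Nutlin-3 peak of 760 bp from 34850771 to 34851531. On chromosome 15 a peak of 40 bp from 91294331 to 91294371 lay inside one of 640 bp from 91293871 to 91294511. The next were at chrX:69247871-69247911 (40 to 580 bp), chr20:13213771-13213811 (40 to 540 bp) and chr4:121339391-121339431 (40 to 500 bp). All 5 of these Nutlin-3 peaks were also overlapped by doxorubicin. At the other end, a DMSO peak of 500 bp at chr3:20094891-20095391 met a Nutlin-3 peak of 40 bp from 20094991 to 20095031. A DMSO peak of 700 bp on chromosome 15, from 61235351 to 61236051, met one of 240 bp from 61235891 to 61236131. The third, of 600 bp at chr4:40842051-40842651, was overlapped by 2 Nutlin-3 peaks, the wider of 160 bp.

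Outright splitting of a solvent peak was rare, in part by construction. Nutlin-3 peaks lay at least 60 bp apart, so the 911 kept DMSO peaks of 40 bp and the 386 of 60 bp could not be split. Only 16 kept DMSO peaks (0.813%, 0.466 to 1.32) were overlapped by 2 Nutlin-3 peaks, and none by more. These were wide peaks, 4 of 200 to 280 bp and 12 of at least 300 bp, the latter making up 20% of the kept peaks of that class. The widest were at chr6:151219931-151220551 (620 bp), the chromosome 4 peak just described, and chr20:56025951-56026511 (560 bp). Joining was rarer still. In 1 case, at chr15:22655311-22655731, a Nutlin-3 peak of 420 bp overlapped 2 DMSO peaks, enclosing 1 of 40 bp and sharing only the end of 1 of 200 bp.

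Counted by site, most solvent sites found again held as many peaks with Nutlin-3 as with DMSO, and more sites held more than held fewer. When the peaks of each list up to 1000 bp apart were joined into sites, DMSO had 2562 sites and Nutlin-3 had 15705, and 1919 DMSO sites (74.9%, 73.2 to 76.6) were found again. Of these 1919, 737 (38.4%) held more peaks with Nutlin-3 than with DMSO, 1144 (59.6%) held equal numbers and 38 (1.98%) held fewer. Sites of several peaks made up 183 of the 1919 in the DMSO list (9.54%, 8.26 to 10.9) and 817 of the 1912 matching sites in the Nutlin-3 list (42.7%, 40.5 to 44.98), against 1100 of the 13793 Nutlin-3 sites without a DMSO site (7.98%, 7.53 to 8.44). A site of several peaks spans more bases and so has more room to overlap. Measured over joined sites, 1133 (59.0%) were wider with Nutlin-3 and 463 (24.1%) narrower, so the more frequent direction turns on whether neighbouring peaks are counted apart or together.

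DMSO peaks without an overlap were in many cases beside a Nutlin-3 peak. There were 826 of them (29.6%, 27.9 to 31.3). Of these, 183 adjoined a Nutlin-3 peak with a gap of 0 bp and a further 209 lay 20 to 100 bp from one, so that 392 (47.5%, 44.0 to 50.9) lay within 100 bp. Within 1000 bp lay 502 (60.8%), which leaves 324 DMSO peaks, 11.6% of the list, with no Nutlin-3 peak that close. The widest of these 324 were at chr22:25834531-25835111 (580 bp, 1.88 kb from a Nutlin-3 peak), chr2:132749711-132750051 (340 bp, 7.52 kb) and chr2:144901171-144901431 (260 bp, 69.0 kb). Next came chr11:90477051-90477311 (260 bp, 165 kb) and chr9:96715191-96715431 (240 bp, 1.08 kb).

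The doxorubicin list, which took no part in these classes, held different shares of them. Doxorubicin overlapped 1145 of the 1967 kept DMSO peaks (58.2%, 56.0 to 60.4) and 111 of the 826 others (13.4%, 11.2 to 16.0). Among those others the share was 37.2% (30.1 to 44.6) where the DMSO peak adjoined a Nutlin-3 peak, 17.7% (12.8 to 23.6) at 20 to 100 bp and 0.926% (0.191 to 2.68), or 3 of 324, beyond 1000 bp. Kept peaks with identical bounds were the class most often found with doxorubicin, 257 of 342 (75.1%, 70.2 to 79.6), against 57.1% (53.4 to 60.8) of those narrower and 47.4% (43.3 to 51.6) of those wider with Nutlin-3. The median DMSO width was 40 bp for peaks with identical bounds and for those wider with Nutlin-3, and 120 bp for those narrower.

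**Figure D2:**
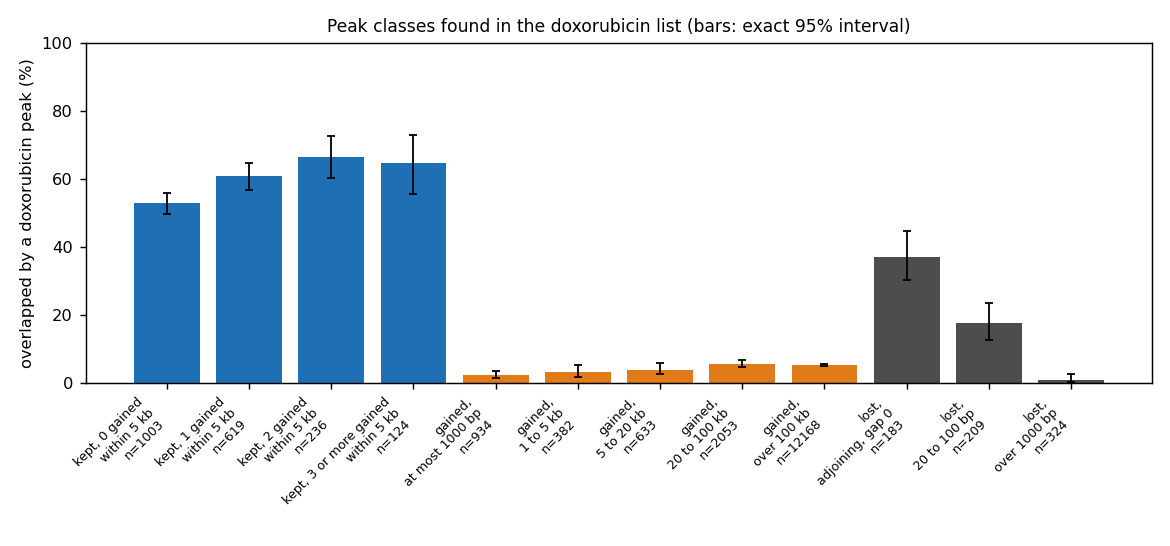
Share of peaks overlapped by at least 1 bp of a doxorubicin peak (vertical axis, %) for kept Nutlin-3 peaks by their number of gained neighbours (blue), gained Nutlin-3 peaks by distance to the nearest kept peak (orange) and DMSO peaks without overlap by distance to the nearest Nutlin-3 peak (grey). Bars show exact 95% binomial intervals, and the shares run from 66.5% (kept, 2 gained within 5 kb) to 0.926% (DMSO peaks over 1000 bp away).

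Peaks listed with Nutlin-3 and without an overlap in DMSO, called gained, numbered 16177 of 18159 (89.1%, 88.6 to 89.5). Their widths were like those of the 1982 kept Nutlin-3 peaks on average, with means of 88.8 and 87.8 bp, but the gained had fewer of the narrowest peaks (32.2% against 54.4% at 40 bp) and fewer of at least 200 bp (7.22% against 10.4%). Doxorubicin overlapped 824 of the gained (5.09%, 4.76 to 5.44) and 1143 of the kept (57.7%, 55.5 to 59.9). The untreated list overlapped 30 gained and 4 kept peaks. Gained peaks within 100 bp of a DMSO peak that had no overlap numbered 397 (2.45%).

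Most gained peaks lay far from any kept one. The median gap to the nearest kept Nutlin-3 peak was 347 kb, and 12168 (75.2%) were over 100 kb away. A minority lay beside kept sites: 934 (5.77%) lay within 1000 bp and 1316 (8.14%) within 5 kb of a kept peak. The stretches within 1000 bp of a kept peak make up 0.132% of the length spanned by the lists, and those within 5 kb 0.620%. Untreated peaks overlapped a kept peak or lay within 5 kb of one in 17 of 496 cases (3.43%). Doxorubicin peaks did so in 1362 of 3087 cases (44.1%), almost all within 1000 bp (1341). Doxorubicin overlapped 1143 of the 1982 kept peaks, and the untreated list overlapped 4. Gained peaks cannot overlap a kept peak of their own list and lay at least 140 bp from one. The untreated and doxorubicin shares thus cannot be set directly against those of gained peaks. Gained peaks also lay close to each other, with another gained peak within 1000 bp in 18.1% of cases and within 5 kb in 31.3%. These shares cannot be set directly against those for kept peaks, since there were 16177 gained peaks to meet but 1982 kept ones. Kept peaks had another kept peak within 1000 bp in 12.01% of cases and within 5 kb in 14.4%. DMSO peaks without overlap had a kept peak that close in 13.4% and 16.0%.

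Near a kept peak, gained peaks were spread unevenly over distance. The smallest gap was 140 bp, with 12 peaks. Counts peaked at 240 bp, with 72 peaks, and 635 of the 934 (68.0%) lay 160 to 400 bp away. They were spread over both sides, 443 towards lower and 491 towards higher coordinates. Few kept peaks had them on both sides: 147 of 1982 (7.42%) did, 618 (31.2%) had them on 1 side and 1217 (61.4%) had none. Within any list peaks kept a distance from each other, of at least 60 bp in the Nutlin-3 list and 120 bp in the DMSO list, and in neither list did peaks adjoin. Counts by gap were not made for other neighbouring peaks of the Nutlin-3 list. The distances above thus cannot be called particular to gained peaks beside kept ones.

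**Figure D3:**
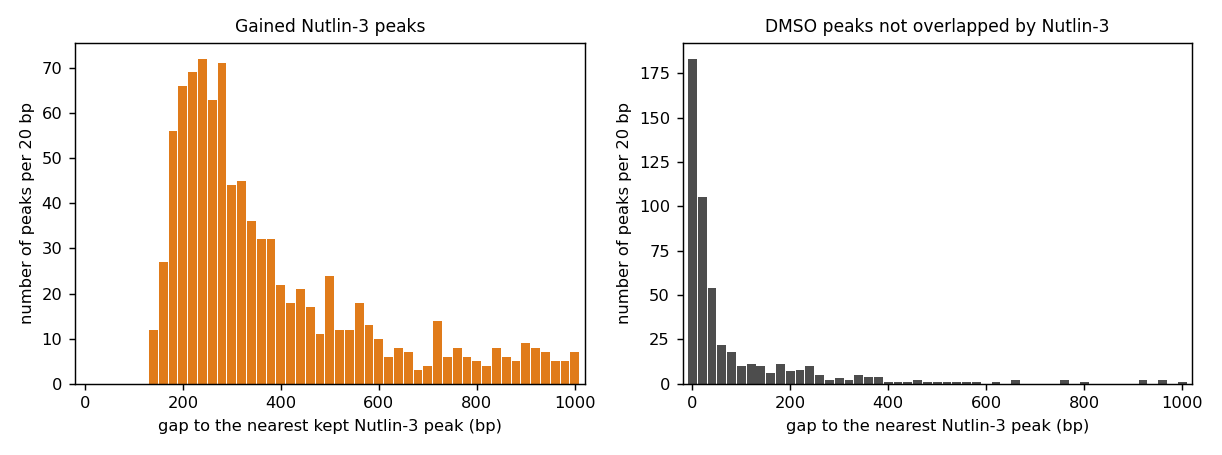
Number of peaks per 20 bp (vertical axes) against the gap in bp (horizontal axes) from gained Nutlin-3 peaks to the nearest kept one (left) and from DMSO peaks without overlap to the nearest Nutlin-3 peak (right). Gained peaks are most frequent at 240 bp, with none below 140 bp, while DMSO peaks without overlap are most frequent at 0 bp.

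Gained peaks beside kept sites were rarely overlapped by a doxorubicin peak but mostly had one nearby. Of the 934 within 1000 bp, doxorubicin overlapped 23 (2.46%, 1.57 to 3.67). The share was 3.14% (1.63 to 5.42) at 1 to 5 kb, 3.95% (2.57 to 5.78) at 5 to 20 kb and 5.29% (4.90 to 5.71) beyond 100 kb. The intervals within 1000 bp and beyond 100 kb do not overlap, but doxorubicin peaks lay at least 180 bp from each other. A doxorubicin peak at a kept site thus leaves less room for another beside it. How far this lowers the share near kept peaks was not tested. With a doxorubicin peak within 1000 bp counted in place of an overlap the order is the opposite, 767 of 934 (82.1%, 79.5 to 84.5) against 8.53% (8.04 to 9.04) beyond 100 kb, and such a peak can be the one at the kept site. Kept peaks with a gained neighbour within 1000 bp were overlapped by doxorubicin in 518 of 765 cases (67.7%, 64.3 to 71.0), and those without in 625 of 1217 (51.4%, 48.5 to 54.2). By number of gained peaks within 5 kb the share was 52.8% (49.7 to 56.0) for 0, 60.7% (56.8 to 64.6) for 1, 66.5% (60.1 to 72.5) for 2 and 64.5% (55.4 to 72.9) for 3 or more. The last 2 intervals overlap.

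Of the 1982 kept Nutlin-3 peaks, 979 (49.4%) had at least 1 gained peak within 5 kb and 12 had 5 or more. The highest number was 7. It was reached at chr1:67925031-67925071, at the GADD45A locus, and at a neighbouring pair of kept peaks at chr8:103317911-103317951 and from 103318231 to 103318271. The next, with 5, were at chr20:33359531-33359591 and chr1:179335491-179335531, tied with 7 others that included 1 at the BBC3 locus. Of the widest gained peaks over 100 kb from a kept one, the first was at chr2:132729031-132730011 (980 bp, 287 kb away) and was also in the doxorubicin and untreated lists. The DMSO peak without overlap at chr2:132749711-132750051 (340 bp), named above and also in doxorubicin, lies in the same stretch. The other widest gained peaks were at chr4:124972731-124973371 (640 bp), chr2:110264251-110264871 (620 bp, also in doxorubicin), chr18:3973331-3973931 (600 bp) and chr7:2639631-2640211 (580 bp).

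Genes known as p53 targets carried peaks in both lists, more in number with Nutlin-3 but a smaller share of that longer list. A list of 27 such genes was placed by hg18 windows rounded to 10 kb, entered by hand from general knowledge of the build, with 10 kb added on each side. No hg18 annotation was used to check them. Their chromosomes agreed in 27 of 27 cases, and their order in 14 of 14 neighbouring pairs, with the RefSeq table of another build. Positions relative to exons or starts are therefore not given. The windows span 1.54 Mb, or 0.0517% of the length covered by the lists, and held 50 DMSO peaks (1.79% of that list), 101 Nutlin-3 peaks (0.556%), 27 doxorubicin peaks (0.875%) and 1 untreated peak (0.202%). A Nutlin-3 peak was listed at all 27 loci and a DMSO peak at 25. Nutlin-3 peaks outnumbered DMSO peaks at 20 loci and equalled them at 7, while the whole lists held 18159 and 2793 peaks.

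Kept peaks were about as frequent at these loci as elsewhere, with 34 of 50 DMSO peaks (68.0%, 53.3 to 80.5) against 70.4% over the list. Of the 16 others, 15 had a Nutlin-3 peak within 1000 bp, against 60.8% of all DMSO peaks without overlap. Gained peaks made up 67 of 101 Nutlin-3 peaks (66.3%, 56.2 to 75.4), against 89.1% over the list. Of these 67, 34 (50.7%, 38.2 to 63.2) lay within 1000 bp of a kept peak, against 5.77% of all gained peaks. The windows are short and 22 of the 27 hold a kept peak, so this contrast follows in part from their size. With 50 kb added on each side, the share was 34 of 88 (38.6%, 28.4 to 49.6). At 18 of the 22 loci with a kept peak, a gained peak lay within 1000 bp of it. Over the list, 765 of 1982 kept Nutlin-3 peaks (38.6%, 36.4 to 40.8) had a gained peak within 1000 bp. That share is counted by peak, while a locus can hold several kept peaks. Of the 34 kept DMSO peaks, 6 were wider with Nutlin-3, 19 equally wide and 9 narrower. Peaks of 1 locus share their surroundings and are not independent, and the genes were chosen as known targets.

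**Figure D4:**
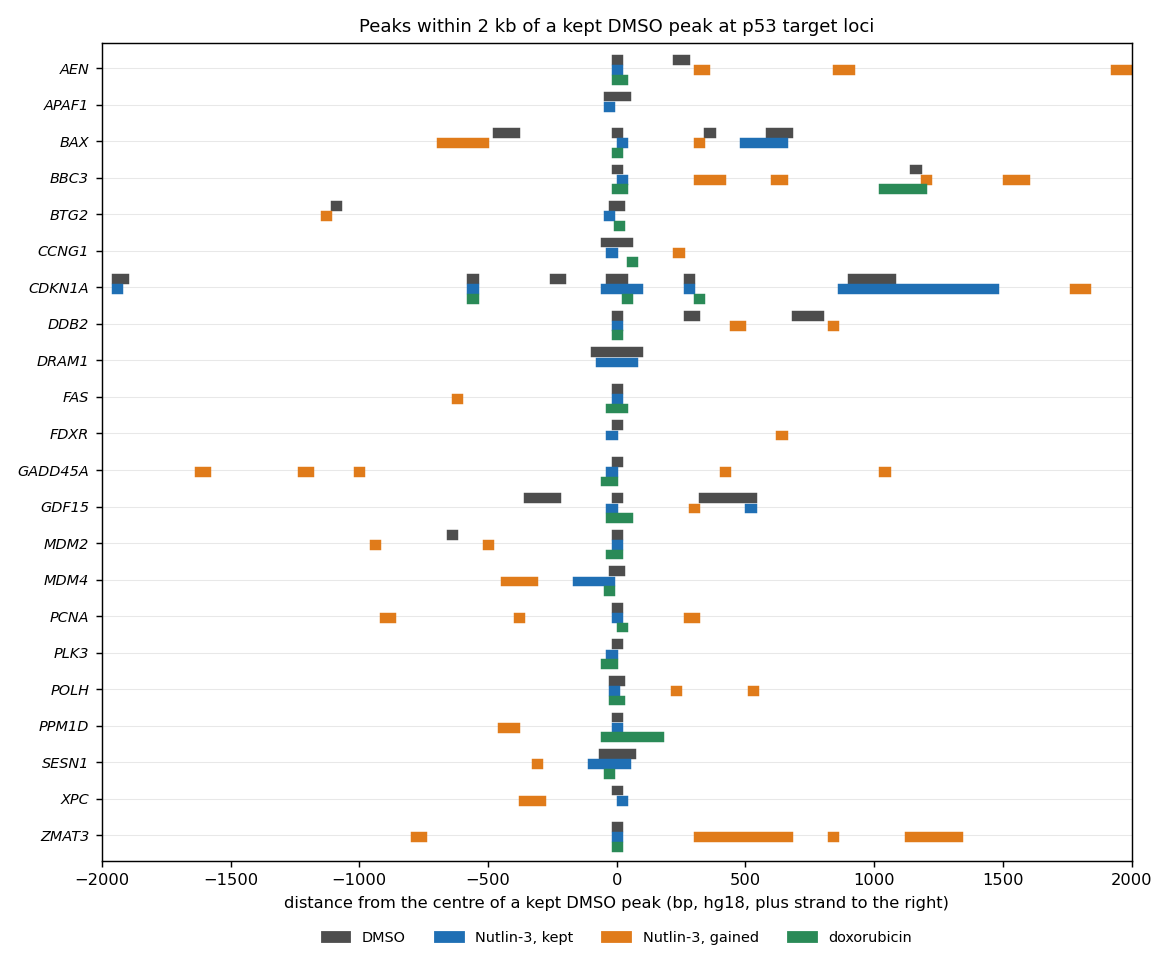
Peaks within 2 kb of a kept DMSO peak at the 22 target loci that have one (rows), by distance in bp from its centre (horizontal axis). Where a locus had several kept peaks, the one with most Nutlin-3 peaks within 2 kb of its centre was used (the lowest coordinate if tied). DMSO peaks are grey, kept Nutlin-3 peaks blue, gained Nutlin-3 peaks orange and doxorubicin peaks green. At 18 of the 22 loci a gained peak lies within 1000 bp of a kept peak. Over the list, counted by peak, 38.6% of kept Nutlin-3 peaks had a gained peak that close.

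Among genes of growth arrest, the 5 loci held 15 DMSO peaks, of which 11 were kept, and 32 Nutlin-3 peaks, of which 21 were gained. CDKN1A encodes p21, the inhibitor of cyclin-dependent kinases through which p53 halts the cell cycle. Its locus on chromosome 6 held 11 DMSO and 13 Nutlin-3 peaks, the most of any locus, with 8 kept and 5 gained. Widening was concentrated in 3 of its peaks. The DMSO peak from 36752751 to 36752831 went from 80 to 160 bp and that from 36753691 to 36753871 from 180 to 620 bp. The peak from 36756091 to 36756331 went from 240 to 440 bp. The peaks from 36742991 to 36743031, from 36752211 to 36752251 and from 36753051 to 36753091 kept their exact bounds at 40 bp. Doxorubicin overlapped the first 2 of these and adjoined the third. All 5 gained peaks lay within 1000 bp of a kept one, at gaps of 160 to 720 bp.

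GADD45A, a growth arrest and DNA damage inducible gene, showed the opposite layout. It had 1 DMSO peak, from 67925051 to 67925091 on chromosome 1, kept at 40 bp and shifted by 20 bp, and 7 gained peaks of 40 to 280 bp at gaps of 400 to 3800 bp. Only 2 of the 7 were within 1000 bp. SFN, which encodes the cell cycle inhibitor 14-3-3 sigma, had 0 DMSO peaks and 6 Nutlin-3 peaks of 60 to 220 bp. Of these the widest, from 27060251 to 27060471, overlapped the only doxorubicin peak there. BTG2, an antiproliferative gene, had 2 peaks in each list. Its DMSO peak from 201541331 to 201541371 adjoined a Nutlin-3 peak with a gap of 0 bp, so the former counts as not overlapped and the latter as gained. PLK3, a polo-like kinase, had the only untreated peak of the 27 loci.

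Genes that feed back on p53 held 7 DMSO peaks, 6 of them kept, and 12 Nutlin-3 peaks, 6 of them gained. At MDM2, the ligase that Nutlin-3 blocks, the peak at chr12:67488991-67489031 had the same bounds in DMSO and Nutlin-3, and doxorubicin overlapped it. Gained peaks of 40 bp stood 460 and 900 bp away on the same side. A second DMSO peak between them, from 67488351 to 67488391, lay 100 bp from the nearer one and had no overlap. MDM4, a relative of MDM2 that restrains p53, had 3 DMSO peaks, all kept, and 5 Nutlin-3 peaks. PPM1D, a phosphatase that dampens the damage response, and CCNG1, cyclin G1, each had 1 kept and 1 gained peak.

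Apoptosis genes held 12 DMSO peaks, 7 kept, and 29 Nutlin-3 peaks, 22 gained, over 8 loci. BBC3, which encodes the BH3-only protein PUMA, had 2 DMSO peaks and 8 Nutlin-3 peaks on chromosome 19. The DMSO peak from 52426491 to 52426531 was kept at 40 bp, and the other, from 52427651 to 52427691, adjoined a gained peak. ZMAT3, a zinc finger gene, had a peak of 40 bp at chr3:180270651-180270691 with the same bounds in DMSO, Nutlin-3 and doxorubicin, and 4 gained peaks around it, the widest of 380 bp at a gap of 280 bp. FAS, a death receptor, had a peak with the same bounds in both lists, from 90741011 to 90741051 on chromosome 10, and 1 gained peak 580 bp away. AEN, an apoptosis-enhancing nuclease, likewise kept its exact peak from 86965531 to 86965571 on chromosome 15, with 4 gained peaks at the locus. BAX, which permeabilises mitochondria, had 4 peaks in each list, 2 of them kept. TP53I3, a quinone oxidoreductase gene, had 0 DMSO peaks and 3 Nutlin-3 peaks of 40 bp in a row, from 24160691 to 24161231 on chromosome 2, with 0 doxorubicin peaks. PMAIP1, which encodes NOXA, had 1 DMSO peak and 1 gained peak of 320 bp that adjoins it. APAF1, the scaffold of the apoptosome, had 1 peak in each list and no gained one.

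The 4 repair loci held 6 DMSO peaks, 4 kept, and 13 Nutlin-3 peaks, 9 gained, of which 8 lay within 1000 bp of a kept peak. DDB2, a sensor of ultraviolet damage whose promoter holds the site with 0 mismatches printed above, had a peak of 40 bp at chr11:47193111-47193151 with the same bounds in DMSO, Nutlin-3 and doxorubicin. Its 2 other DMSO peaks were not overlapped and lay 120 and 20 bp from gained peaks. PCNA, the sliding clamp of replication, kept the exact bounds of its DMSO peak at chr20:5048831-5048871, flanked by gained peaks at 240, 340 and 840 bp. POLH, a translesion polymerase, had 1 kept and 3 gained peaks, and XPC, a sensor of nucleotide excision repair, had 1 kept and 1 gained.

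The 6 loci of metabolism and stress defence held 10 DMSO peaks, 6 kept, and 15 Nutlin-3 peaks, 9 gained. GDF15, a secreted stress cytokine, had 5 peaks in each list with 3 DMSO peaks kept, and 1 of its others was the only DMSO peak of the 27 loci with no Nutlin-3 peak within 1000 bp, at a gap of 5060 bp. SESN1, a sestrin, had 1 kept and 2 gained peaks, and FDXR, ferredoxin reductase, 1 of each. DRAM1, an autophagy gene, had 1 kept and 0 gained peaks. SESN2 and TIGAR, a fructose bisphosphatase, had 1 DMSO peak each, not overlapped, at gaps of 0 and 20 bp from Nutlin-3 peaks.

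The increase was spread over the chromosomes. Nutlin-3 had between 4.85 (chromosome 19) and 8.48 (chromosome 22) times as many peaks as DMSO on each chromosome with DMSO peaks. The kept share of DMSO peaks ran from 55.0% (41.6 to 67.9, 33 of 60) on chromosome 18 to 83.3% (69.8 to 92.5, 40 of 48) on chromosome X. Chromosome Y had 7 Nutlin-3 and 0 DMSO peaks. Gained peaks were more numerous where kept peaks were, at the scale of 1 Mb: windows with 0 kept peaks that held any Nutlin-3 peak had a median of 4 gained, those with 1 had 6, and those with 4 or more had 13. Across the 2657 windows Pearson's r was 0.371, given as a description, since windows share a library and differ in gene and base content. The fullest window, on chromosome 18 between 3 and 4 Mb, broke this relation with 43 gained peaks, 1 kept peak and 2 doxorubicin peaks. It was singled out after its values were seen.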

How the data were processed

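p53 ChIP-seq peaks were compared between the Nutlin-3 and DMSO libraries, with the doxorubicin and untreated lists as outside readouts. The authors deposited 1 list of 3 columns per ChIP library, giving chromosome, start and end in bp on hg18, with no other value. The submitters' processing notes name CASAVA and Bowtie 0.12.2. No source used here gives the peak caller, its threshold, its use of the inputs or the depth. Ends were taken to lie outside the peak. Overlaps, gaps, widths and exact Clopper-Pearson intervals were computed in Python 3.11.15 with numpy 2.4.6 and scipy 1.17.1, and figures drawn with matplotlib 3.10.9. The code was tested on simulated data with 1000 DMSO peaks and recovered all 7 quantities. Regions were named by rank (widest, most changed, most neighbours). The loci described are a fixed list of p53 targets. CCNG1 was counted under feedback, and 1 gene of that list is not reported here. The comparison, the lists and the rules were chosen with earlier results of these data known. Alternatives were other overlap rules, joined peaks, autosomes, wider peaks, other gaps and wider loci.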

Additional observations from a re-analysis of the deposited data

How the results depend on the processing

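With 1 library per condition and an unknown depth, none of these values can be separated from library differences. No paired analysis was possible because each condition has 1 library and the result comes from no test. Of 47 alternatives, 15 stayed within the interval of the value reported and 32 moved. The cause was not tested, except that shorter lists and other gaps change shares by construction. DMSO peaks kept were 40.5% with a reciprocal overlap of 50%, 84.2% with midpoints within 200 bp, 88.4% within 1000 bp, 77.0% with ends counted as part of the peak, 74.4% and 74.9% with peaks joined up to 500 and 1000 bp, 38.7% without peaks of 40 bp and 32.7% in the widest 50%. Nutlin-3 peaks gained were 93.8%, 86.8%, 81.1%, 88.1%, 88.2%, 87.8%, 95.2% and 94.96% in the same order. Kept peaks that widened were 55.9% with peaks joined up to 500 bp (25.8% narrowed), 43.0% without peaks of 40 bp and 49.9% in the widest 50%. Split peaks were 0.156% with joining to 500 bp and 0.219% in the widest 50%. Gained peaks near kept ones were 3.46% with joining to 500 bp, 2.38% without peaks of 40 bp, 2.22% in the widest 50%, 5.77% at 1000 bp, 12.05% at 20 kb and 11.9% when measured to any DMSO peak. At the target loci, DMSO peaks kept were 50% with the reciprocal overlap and 98.0% within 1000 bp, and Nutlin-3 peaks gained within 1000 bp were 24.8%. Within 1000 bp, doxorubicin met 34.6% of DMSO peaks without overlap and 70.6% of those kept; these 2 values and the joining to 1000 bp were added after the data were seen. On autosomes and with joining to 100 bp, none of the 5 main shares moved.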
